A study of Mus musculus with 26 samples.

Results

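The comparison set invasive tumor epithelium of the mouse tongue against normal tongue epithelium, with 3 RNA-seq libraries in each group and 6 of the 26 libraries of the series in all. The tissue came from male mice of the inbred CBA strain, from work on oral carcinomas caused by 4-NQO, a compound that damages DNA. Epithelium was cut by laser out of paraffin sections of tongue fixed in formalin, along outlines drawn by a pathologist, and the stroma and muscle beneath it were collected as libraries of their own. The mice with tumors were 32, 32 and 28 weeks old and those with normal epithelium 16, 24 and 20 weeks old, so age and stage cannot be told apart. The labels do not state whether the mice that gave normal tissue had received 4-NQO. They call the libraries biological replicates but tie none of them to an animal, so regions may share an animal and p-values may then measure technical or regional spread and be too small. Libraries are named here by group and replicate number (tumor epithelium 1), and the same number in both groups does not mark a pair. The study followed both compartments from normal mucosa through hyperplasia and dysplasia to invasive tumor, and the contrast of tumor with normal epithelium spans its first and last stage.

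Tongue epithelium is a stratified squamous epithelium. Basal cells with the keratins Krt5 and Krt14 divide, and their daughters move up, switch to Krt4, Krt13 and Krt76 and build a cornified envelope, while the filiform papillae of the dorsal tongue make hard keratins related to those of hair. When such an epithelium is wounded or becomes malignant, keratinocytes make Krt16, Krt17 and the S100 proteins S100a8 and S100a9, and squamous carcinomas invade with proteases, matrix receptors and changes in the actin cytoskeleton. A section of tumor epithelium also holds macrophages, strands of matrix and, in the tongue, fibres of skeletal muscle and lobules of salivary gland close by.

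Values are log2(TPM + 1), where TPM is a length-scaled relative abundance, so that levels of different genes can be set side by side. A difference is tumor minus normal epithelium on this scale, fitted with the sequencing run as a term and given ± SE, and it can therefore depart from the plain difference of the means. Keratinocyte genes were at the top of all 6 libraries: Krt13 lay between 12.15 and 13.35 in tumor libraries and between 12.72 and 13.77 in normal libraries, and Krt5 between 8.95 and 10.49 in tumor libraries and between 8.61 and 9.80 in normal libraries. The labelled tissue therefore showed its defining genes. Tumor epithelium 1 and normal epithelium 3 stood apart from the other 4 libraries, with 27 and 25 genes listed at 0, against between 254 and 1435 in the others, and with the highest mean level of olfactory receptor genes, which tongue is not known to use widely (1.48 and 1.83, against 0.72 to 1.04). The listed TPM summed to 264081, 551121 and 423240 in tumor epithelium 1, 2 and 3, against 301094, 482472 and 325683 in normal epithelium. Cytosolic ribosomal protein genes had mean levels of 7.15, 8.96 and 8.51, against 8.02, 8.79 and 7.66. Low values of tumor epithelium 1 in single genes are read against these levels. TPM keeps no record of depth, so the depth behind each library is unknown. In bulk tissue, fewer cells of a type and less RNA per cell cannot be told apart.

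Tumor epithelium differed from normal epithelium in 7 genes at an adjusted p under 0.05 (limma, Benjamini-Hochberg over 14126 genes), which is 0.0496% of the genes tested. B2m and Nlrc5, which serve antigen presentation, Pthlh and Fscn1, which are known from invading carcinoma cells, the glycosyltransferase gene Galnt6 and the collagen gene Col12a1 rose (6 genes, 0.0425%), and the protease inhibitor gene Spink6 fell (1 gene, 0.00708%). The differences of the genes that rose lay between 2.73 and 4.04, and that of Spink6 was -3.25. At an unadjusted p under 0.05 there were 629 genes (4.45%), of which 390 (2.76% of all) were higher and 239 (1.69%) lower in tumor epithelium, and 51.6% of all genes had a positive difference, with a median over genes of 0.02. In 515 genes (3.65%) all 3 tumor libraries lay above all 3 normal libraries, and in 721 genes (5.1%) all lay below. Lists of widely expressed genes leaned positive. Cytosolic ribosomal protein genes were positive in 38 of 46 (median 0.18) and nuclear oxidative phosphorylation genes in 53 of 68 (median 0.21). Counts of positive genes in the lists below are read against these as well. All 6 calls that rose were lost in the smaller fits without tumor epithelium 2 or 3 or normal epithelium 1 or 2, and Spink6 was lost without tumor epithelium 2 or normal epithelium 1 or 2; with only the 6 tumor and normal libraries in the fit, 231 genes were higher and 82 lower. An exact two-sided permutation test of 3 against 3 libraries cannot give less than 0.1 for a single gene.

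**Figure D1:**
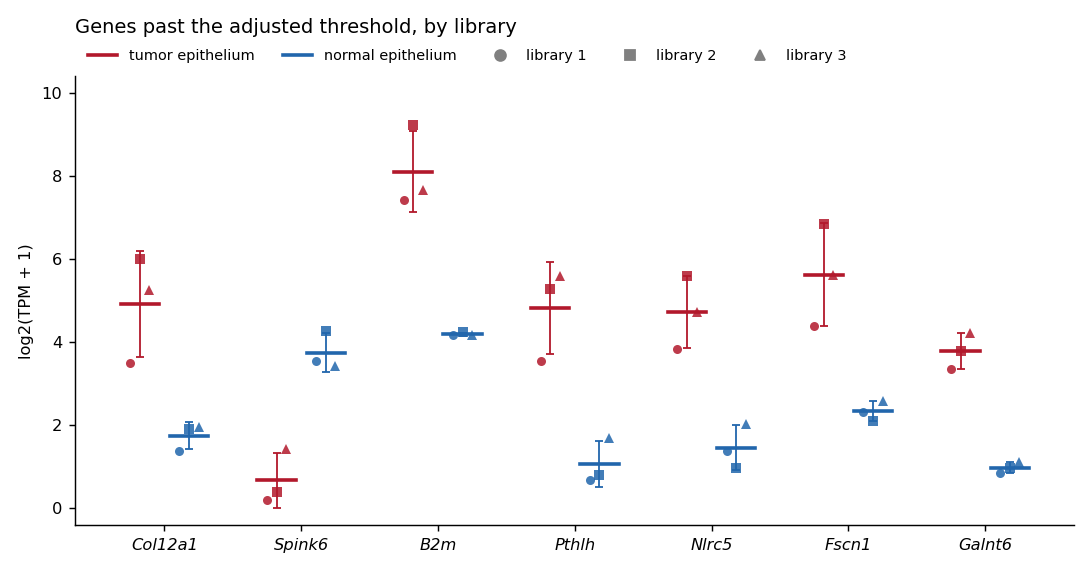
Level of the 7 genes past the adjusted threshold in each library, as log2(TPM + 1) on the y axis; points are single libraries, horizontal lines group means and error bars SD (n = 3 each). Tumor libraries lie above normal libraries without overlap for 6 genes and below them for Spink6. Tumor epithelium 1 is the lowest tumor library for all 6 genes that rose, and it also has the lowest summed TPM of the 6 libraries.

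Antigen presentation by MHC class I was represented by 2 of the 7 genes. B2m encodes the light chain that every classical class I molecule needs, and Nlrc5 encodes the transactivator of the class I genes. B2m (chromosome 2, 122147686 to 122153083, GRCm38) was at 7.42, 9.24 and 7.68 in tumor epithelium 1, 2 and 3, against 4.18, 4.24 and 4.16 in normal epithelium. The normal libraries were almost level, and the lowest tumor library stood far above them. The fitted difference was 4.04 ± 0.69 (adjusted p = 0.0322, limma). Nlrc5 (chromosome 8, 94434356 to 94527272) was at 3.84, 5.59 and 4.74 in tumor epithelium, against 1.38, 0.96 and 2.03 in normal epithelium. Again no tumor library overlapped a normal one, and the difference was 3.31 ± 0.61 (adjusted p = 0.0442, limma).

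The other class I genes leaned the same way without passing the test. Of 18 genes listed for class I presentation 13 were tested, all 13 had a positive difference, and the median was 1.33, against 0.02 over all genes. At an unadjusted p under 0.05 there were 9, and in 6 the groups did not overlap, against 2.76% and 3.65% of all genes in this direction. Psmb8, a subunit of the immunoproteasome, was at 2.54, 4.51 and 2.41 in tumor epithelium, against 0.72, 0.99 and 1.44 in normal epithelium (2.23 ± 0.62, limma adjusted p = 0.307). Tap1, a chain of the peptide transporter, was at 2.77, 4.77 and 3.13 in tumor epithelium, against 1.69, 2.06 and 2.52 in normal epithelium (1.54 ± 0.56, limma adjusted p = 0.726). In both genes tumor epithelium 2 was well above the other tumor libraries. Its partner Tap2 had a difference of 1.88 and the immunoproteasome subunit Psmb9 1.66. The heavy chains H2-K1 and H2-D1 stood in several rows of the table and were not used here. In normal stroma B2m was at 6.73, 6.24 and 5.33, above every normal epithelium library, and Nlrc5 at 1.78, 1.96 and 2.24, which overlapped normal epithelium. Macrophage genes, described further on, were positive in 16 of 17 (median 1.35). The part of other cell types in the class I differences was not tested.

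The promoters of B2m and of the Tap1 and Psmb9 pair show the stretches from which these genes are read. RefSeq windows from 250 bases before to 50 bases after the start (GRCm38.p6) were searched on both strands for 2 copies of GAAA spaced by any 2 bases, the core of the element bound by interferon regulatory factors, which is in capitals below. The B2m window at chr2:122147437-122147736 on the plus strand holds it at positions -139 to -130 from the start, while the Tap1 window at chr17:34187306-34187605 on the plus strand does not hold these letters and shares 275 bases with the window of Psmb9, which is read in the opposite direction.
B2m: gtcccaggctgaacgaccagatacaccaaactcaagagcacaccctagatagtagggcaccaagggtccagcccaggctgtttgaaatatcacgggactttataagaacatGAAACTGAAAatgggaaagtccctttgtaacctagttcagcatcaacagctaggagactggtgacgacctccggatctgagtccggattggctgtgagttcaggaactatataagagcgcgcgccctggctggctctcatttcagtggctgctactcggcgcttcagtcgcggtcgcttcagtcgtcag
Tap1: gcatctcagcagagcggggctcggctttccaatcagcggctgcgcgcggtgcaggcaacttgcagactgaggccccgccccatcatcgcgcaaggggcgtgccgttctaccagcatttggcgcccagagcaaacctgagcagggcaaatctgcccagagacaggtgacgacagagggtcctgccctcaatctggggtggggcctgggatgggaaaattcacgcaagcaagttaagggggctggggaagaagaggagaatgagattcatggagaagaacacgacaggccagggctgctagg
The motif was present in the windows of 4 of 16 class I genes with an entry, namely B2m, Psme1, Erap1 and H2-T23, against 1079 of all 27025 genes with a window (3.99%) and 1131 of all 32851 windows (3.44%). Such a match describes the letters only.

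MHC class II and interferon genes leaned positive, by different amounts. All 8 tested class II genes had a positive difference (median 0.96), with the class II chains H2-Ab1 at 1.77 and H2-Aa at 1.76, the invariant chain Cd74 at 1.57 and the lysosomal protease Ctss at 2.25. None passed the test, and 4 were at an unadjusted p under 0.05, against 2.76% of all genes in this direction. Macrophage genes, described further on, moved with them (16 of 17 positive, median 1.35), the class II genes had a median of -0.92 between tumor epithelium and tumor stroma, and the part of macrophages in these differences was not tested. H2-Ab1 was at 4.47, 6.45 and 5.18 in tumor epithelium, against 3.44, 4.24 and 3.41 in normal epithelium. Genes that interferon induces had smaller differences, positive in 16 of 17 with a median of 0.52. Irf1, a transcription factor of the interferon response, had the largest (1.03). Of the 17, only 1 was higher at an unadjusted p under 0.05, against 2.76% of all genes, and none passed the test.

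Genes of invasion held 2 further calls. Pthlh encodes the parathyroid hormone-related protein that squamous carcinomas are known to secrete. It lies on chromosome 6 (147252101 to 147264183) and was at 3.55, 5.29 and 5.60 in tumor epithelium, against 0.69, 0.79 and 1.70 in normal epithelium. All 3 tumor libraries lay above all normal ones, tumor epithelium 1 being the lowest, and the difference was 3.58 ± 0.64 (adjusted p = 0.0442, limma). Fscn1 encodes fascin, which bundles actin in the protrusions of moving cells. On chromosome 5 (142960343 to 142973185), it was at 4.38, 6.86 and 5.63 in tumor epithelium, against 2.33, 2.10 and 2.59 in normal epithelium (3.47 ± 0.64, limma adjusted p = 0.0442). Here tumor epithelium 2 was the highest and tumor epithelium 1 the lowest of its group, and again no libraries overlapped.

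Of 25 tested genes listed for invasion and partial mesenchymal change, 23 had a positive difference, the median was 0.73, and the 2 above passed. Of these 25 genes 10 were in the stroma-high class and 2 in the epithelium-high class defined further on, the list of activated fibroblasts moved with them (19 of 22 positive, median 1.23), and its part in the differences was not tested. In all, 9 were at an unadjusted p under 0.05 and 11 did not overlap, against 2.76% and 3.65% of all genes in this direction. The matrix glycoprotein Tnc was at 3.23, 5.92 and 4.96 in tumor epithelium, against 2.14, 2.82 and 2.75 in normal epithelium (2.29 ± 0.73, limma adjusted p = 0.447). The collagenase Mmp13 was at 1.03, 3.63 and 2.92 in tumor epithelium, against 0.00, 0.02 and 0.59 in normal epithelium (2.26 ± 0.69, limma adjusted p = 0.390). The lowest tumor library of both genes, tumor epithelium 1, was close to the normal libraries. The urokinase gene Plau (1.68) also lay without overlap above normal. The mesenchymal filament gene Vim had a difference of 0.91 ± 0.53, and its groups overlapped.

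Galnt6 and Spink6 moved in opposite directions. Galnt6 encodes an enzyme that starts O-linked glycans and was the only called gene in the epithelium-high class defined further on. It lies on chromosome 15 (100691813 to 100729376) and was at 3.35, 3.78 and 4.23 in tumor epithelium, against 0.85, 0.98 and 1.11 in normal epithelium (2.73 ± 0.51, limma adjusted p = 0.0484). Both groups were tight and far apart. Spink6 encodes an inhibitor that in human skin acts on kallikrein proteases. It lies on chromosome 18 (44071393 to 44083611) and was at 0.19, 0.39 and 1.43 in tumor epithelium, against 3.54, 4.28 and 3.42 in normal epithelium (-3.25 ± 0.53, limma adjusted p = 0.0284). The tumor libraries were close to or at the lower end of the scale, so the fold change of this gene is understated.

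Kallikreins, which shed cornified cells and which Spink inhibitors restrain, did not follow Spink6 as a group. Of 13 tested kallikrein and Spink genes 8 had a positive difference, with a median of 0.06 that became -0.06 under quantile normalization and -0.01 under median centring. The exception was Klk5, which was at 1.94, 0.94 and 2.56 in tumor epithelium, against 4.05, 4.42 and 3.97 in normal epithelium (-2.44 ± 0.60, limma adjusted p = 0.192). Its libraries did not overlap, whereas those of Klk8, Klk10 and Klk14 lay at like levels in both groups. Klk14, for example, was at 7.76, 7.75 and 8.38 in tumor epithelium, against 7.78, 8.27 and 7.36 in normal epithelium. Klk6 lay above normal without overlap, at 2.46, 1.41 and 3.01 in tumor epithelium, against 0.86, 0.33 and 1.18 in normal epithelium (0.981 ± 0.855). The 8 genes with a positive difference were all kallikreins. The inhibitor Spink5 had a difference of -0.28 ± 0.65.

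The list of wound-type keratinocyte genes held the largest single difference, and none of its genes passed the test across all genes. S100a9, a calcium-binding protein of activated keratinocytes and of neutrophils, had the largest positive difference of the 14126 genes. It was at 9.35, 6.24 and 9.61 in tumor epithelium, against 0.23, 0.00 and 1.08 in normal epithelium (6.79 ± 1.54, limma adjusted p = 0.137). Its partner S100a8 was at 9.36, 6.53 and 9.83 in tumor epithelium, against 0.48, 1.33 and 1.76 in normal epithelium (6.22 ± 1.50, limma adjusted p = 0.167). Both were lowest in tumor epithelium 2 and near 0 in normal epithelium, and their SE exceeded that of every called gene.

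Krt17 was at 9.29, 10.43 and 10.23 in tumor epithelium, against 6.04, 7.32 and 5.55 in normal epithelium (3.79 ± 0.77, limma adjusted p = 0.0692). Krt16 was at 10.58, 11.37 and 11.32 in tumor epithelium, against 8.46, 9.18 and 7.61 in normal epithelium (2.66 ± 0.79, limma adjusted p = 0.354). Neither keratin overlapped between the groups, and both are close paralogs whose reads could be shared. All 9 tested genes of the list were positive (median 1.78), among them the growth factor Hbegf (1.78) and the AP-1 component Fosl1 (1.60). Of the 9, 7 were at an unadjusted p under 0.05 and 7 without overlap, against 2.76% and 3.65% of all genes in this direction. Markers of neutrophils, another source of S100a8 and S100a9, had positive differences in 3 of 4 tested (median 0.93), and none passed the test. Ltf, the lactoferrin of neutrophil granules and of glands, was at 3.76, 5.05 and 2.59 in tumor epithelium, against 0.55, 0.02 and 2.26 in normal epithelium (2.72 ± 0.76, limma adjusted p = 0.307), without overlap. Csf3r, the receptor for granulocyte growth factor, was at 2.01, 3.45 and 3.35 in tumor epithelium, against 0.46, 0.85 and 1.91 in normal epithelium. Cxcr2, a chemokine receptor, was at 4.11, 3.17 and 3.81 in tumor epithelium, against 2.78, 2.69 and 4.60 in normal epithelium, and the granule gene Elane was at most 0.42 in all 6 libraries. Among tumor libraries, S100a8, S100a9 and Cxcr2 were highest in tumor epithelium 1 and 3, Csf3r in 2 and 3, and Ltf in 1 and 2. Cxcr2 was higher still in normal epithelium 3. The part of neutrophils in the S100 levels was not tested.

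**Figure D2:**
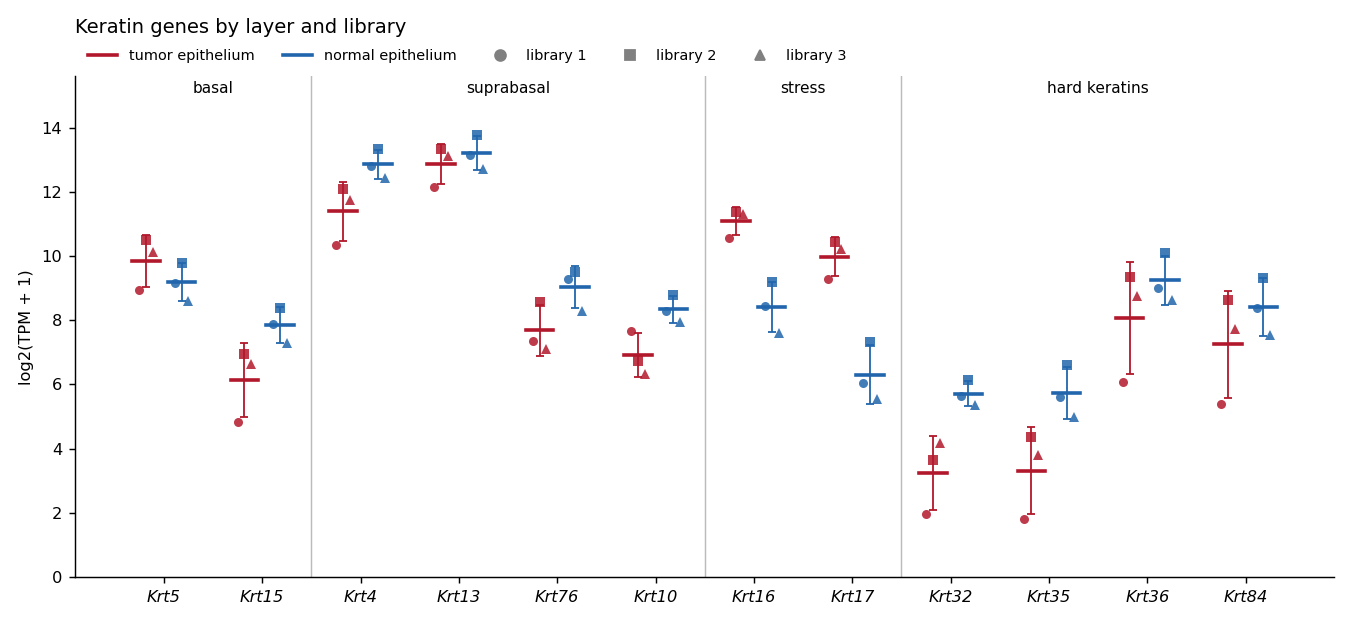
Level of 12 keratin genes in each library, as log2(TPM + 1) on the y axis, grouped by the layer they are known to mark; points are single libraries, horizontal lines group means and error bars SD (n = 3 each). Krt16 and Krt17 lie higher and Krt15, Krt4, Krt10, Krt32 and Krt35 lower in tumor epithelium without overlap, while Krt5 and Krt13 overlap, and no keratin passed the adjusted threshold.

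The rest of the keratinocyte programme was split between members. Oral differentiation genes were positive in 10 of 21 with a median that rounds to 0, and cornified envelope genes in 7 of 16 with a median of -0.07, and none of either list passed the test. Krt4, the suprabasal keratin of the mouth, was at 10.35, 12.09 and 11.74 in tumor epithelium, against 12.81, 13.33 and 12.44 in normal epithelium (-1.35 ± 0.92). Krt10, a keratin of cornifying epithelium, was at 7.68, 6.74 and 6.34 in tumor epithelium, against 8.29, 8.78 and 7.94 in normal epithelium (-1.77 ± 0.93). In both genes all tumor libraries were below all normal ones. The desmosomal cadherin Dsg3 ran the other way, at 6.68, 8.24 and 7.87 in tumor epithelium, against 5.64, 6.34 and 5.43 in normal epithelium (1.93 ± 0.68, limma adjusted p = 0.682).

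Basal genes were positive in 9 of 16 (median 0.59, 0 passed). The P-cadherin gene Cdh3 was at 3.22, 5.21 and 4.64 in tumor epithelium, against 2.05, 2.51 and 2.08 in normal epithelium (2.27 ± 0.58, limma adjusted p = 0.207). Krt15, a keratin of quiescent basal cells, was at 4.82, 6.95 and 6.65 in tumor epithelium, against 7.87, 8.39 and 7.28 in normal epithelium (-1.44 ± 0.68, limma adjusted p = 1). The regulators Trp63 (0.52 ± 0.64) and Sox2 (-0.13 ± 0.46), which keep basal cells in their state, and the keratin Krt5 (0.86 ± 0.74) overlapped between the groups.

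The hard keratin list of filiform papillae was negative throughout, in 8 of 8 tested genes of 16 listed (median -1.24). Of these, 2 were at an unadjusted p under 0.05 and 4 did not overlap, against 1.69% and 5.1% of all genes in this direction. None passed the adjusted threshold. Krt32 was at 1.95, 3.63 and 4.16 in tumor epithelium, against 5.65, 6.15 and 5.35 in normal epithelium (-2.52 ± 0.84, limma adjusted p = 0.543). Krt35 was at 1.80, 4.36 and 3.79 in tumor epithelium, against 5.62, 6.60 and 4.98 in normal epithelium (-2.49 ± 1.00, limma adjusted p = 0.875). Tumor epithelium 1 was the lowest library for both. Msx2 (-1.23), a homeobox regulator of hair and papilla, and Lef1 (-0.90), a Wnt effector, also lay below normal without overlap. Outside the list, Dsg4, the desmosomal cadherin of the hair shaft, was at 0.71, 1.64 and 1.86 in tumor epithelium, against 3.24, 4.65 and 2.69 in normal epithelium (-2.14 ± 0.51, limma adjusted p = 0.156). Gprc5d, a receptor found in cells that make hard keratin, was at 0.55, 0.51 and 0.85 in tumor epithelium, against 2.28, 3.74 and 2.51 in normal epithelium (-2.18 ± 0.42, limma adjusted p = 0.0588). The site on the tongue from which each region was cut is not given in the labels, so site and stage cannot be told apart for these genes.

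**Figure D3:**
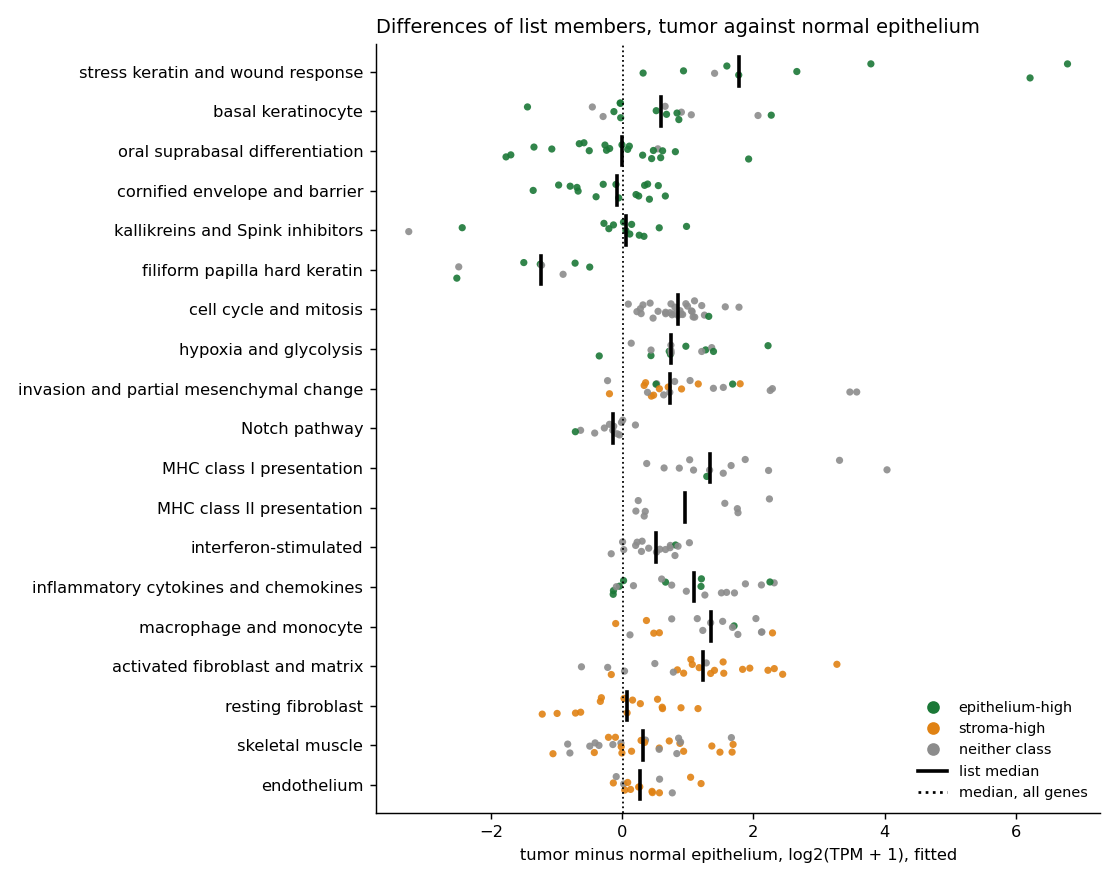
Fitted difference, tumor minus normal epithelium in log2(TPM + 1), of every tested member of 19 gene lists; each point is a gene, coloured by its compartment class, bars are list medians and the dotted line is the median of all genes (0.02). The members of the stress keratin, cell cycle and MHC lists lie right of 0 and those of the hard keratin list left of it.

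Cell division genes were positive in 31 of 31 tested (median 0.85), 10 at an unadjusted p under 0.05 and none past the adjusted threshold. In this direction, 2.76% of all genes were at that unadjusted p and 3.65% did not overlap. Only 3 of the 31 did not overlap between the groups. Of these, Mcm5, a subunit of the replicative helicase, was at 3.23, 4.42 and 4.06 in tumor epithelium, against 2.30, 2.50 and 2.44 in normal epithelium (1.57 ± 0.45, limma adjusted p = 0.311). Rrm2, which makes deoxynucleotides, had a difference of 1.78 ± 0.62 and Plk1, a mitotic kinase, 1.32 ± 0.59. Mki67, the proliferation marker, was at 3.95, 5.09 and 4.37 in tumor epithelium, against 3.76, 4.36 and 3.16 in normal epithelium, and overlapped.

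Hypoxia and glycolysis genes were positive in 14 of 15 (median 0.74, 0 passed). The glucose transporter Slc2a1 was at 5.66, 7.06 and 6.68 in tumor epithelium, against 4.23, 4.95 and 3.97 in normal epithelium (2.22 ± 0.63, limma adjusted p = 0.311). Bnip3, a mitochondrial protein induced by low oxygen, had a difference of 1.39 ± 0.50, and the hypoxia marker Car9 one of 0.14 ± 0.51. Notch pathway genes had negative differences in 10 of 12 (median -0.14), with the target genes Nrarp at -0.71 and Hes1 at -0.63. Genes of the EGFR family and its ligands were positive in 5 of 10 (median -0.08), the receptor Egfr being at 4.60, 5.33 and 5.33 in tumor epithelium, against 5.25, 6.16 and 4.81 in normal epithelium. Among p53 (Trp53) and its targets, 16 of 20 genes were positive (median 0.38), while Cdkn1a, the cell cycle inhibitor, had -0.40 ± 0.62. Targets of NRF2, the regulator of antioxidant genes, were positive in 8 of 13 (median 0.18).

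Macrophage genes were positive in 16 of 17 tested (median 1.35), and none passed the adjusted threshold. Of the 17, 10 were at an unadjusted p under 0.05 and 10 without overlap, against 2.76% and 3.65% of all genes in this direction. C1qc, a chain of complement C1q that tissue macrophages make, was at 2.69, 3.68 and 2.31 in tumor epithelium, against 0.56, 0.50 and 1.48 in normal epithelium (2.12 ± 0.45, limma adjusted p = 0.0924). Cd14, the co-receptor for bacterial lipopolysaccharide, was at 1.56, 3.67 and 2.87 in tumor epithelium, against 0.07, 0.71 and 1.13 in normal epithelium (2.13 ± 0.52, limma adjusted p = 0.191). Every tumor library was above every normal one in both. Of the immune markers that the study also stained, Ptprc, the gene of CD45, had the largest difference (1.08 ± 0.46, unadjusted p = 0.0281, limma) and overlapped. Adgre1, the gene of F4/80, had a difference of 0.57 ± 0.48, and Cd163, a marker of M2 macrophages, had -0.10 ± 0.40. T and NK cell genes were positive in 5 of 13 (median -0.06), with Cd3e at -0.06 and Cd8a at -0.57. Their mean level was low, at 1.44, 1.20 and 1.11 in tumor epithelium, against 0.91, 0.98 and 1.76 in normal epithelium. The median changed sign in 5 of 22 alternatives and was 0.18 without tumor epithelium 1 and normal epithelium 3. The direction of this list is therefore not settled.

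Genes of cytokines and chemokines were positive in 16 of 20 (median 1.09). Of the 20, 7 were higher at an unadjusted p under 0.05, against 2.76% of all genes, and none passed the adjusted threshold. Il33, an alarmin that keratinocytes store, was at 5.75, 7.30 and 6.97 in tumor epithelium, against 4.20, 5.20 and 4.36 in normal epithelium (2.25 ± 0.57, limma adjusted p = 0.199). Il1b was at 2.63, 4.57 and 4.65 in tumor epithelium, against 0.39, 1.60 and 2.00 in normal epithelium, and the growth factor of macrophages Csf1 had a difference of 1.71, that of the neutrophil attractant Cxcl5 being 2.12. These were higher in all 3 tumor libraries than in any normal one. Il1a and Il18 differed by 0.02 and -0.13.

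To separate keratinocyte genes from genes of the tissue around them, every gene was classed by a contrast between other stages: hyperplasia and dysplasia epithelium against hyperplasia and dysplasia stroma, at an adjusted p under 0.05 and a difference of at least 1. The tumor and normal libraries are not in that contrast, but they were in the same fit of 26 libraries and so bear on its variance and run term. This gave 2085 epithelium-high genes (14.8% of the 14126) and 724 stroma-high genes (5.13%). In tumor against normal epithelium, 85 of the epithelium-high genes (4.08%) were higher and 39 (1.87%) lower at an unadjusted p under 0.05. Of the stroma-high genes, 52 (7.18%) were higher and 15 (2.07%) lower, and of the genes in neither class 253 (2.24%) were higher and 185 (1.63%) lower. The share higher at that p was larger among stroma-high than among epithelium-high genes, 6.63% to 7.47% against 3.49% to 5.12% under 5 other ways of setting the classes. By sign alone the order was the other way, with 61.6% of epithelium-high and 54.1% of stroma-high genes positive and medians of 0.13 and 0.04. The 2 classes themselves were sensitive to scaling and to single stroma libraries. Over all 15499 genes tested, 2085 epithelium-high against 800 stroma-high genes became 1189 against 1083 after rescaling without 3 dominant genes. They became 1616 against 1372 after quantile normalization and 1075 against 1631 without the 3 stroma libraries those genes dominate. These were hyperplasia stroma 1 (86% of TPM in those genes, 9382 genes at 0), dysplasia stroma 2 (53.4%, 4637) and normal stroma 1 (47.4%, 1979). Hyperplasia stroma 1 and dysplasia stroma 2 are part of the class contrast.

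**Figure D4:**
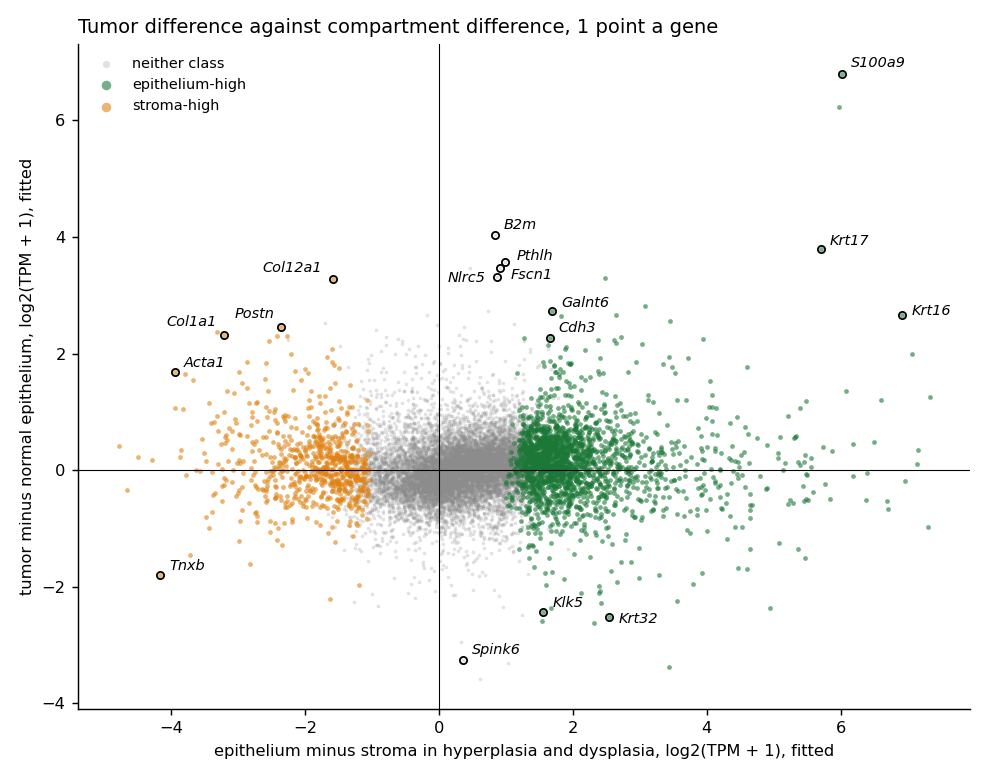
Fitted tumor minus normal difference (y axis) against the fitted epithelium minus stroma difference in hyperplasia and dysplasia (x axis), both in log2(TPM + 1), with 1 point for each of 14126 genes and the classes in colour. B2m, Nlrc5, Pthlh and Fscn1 lie in neither class, S100a9, Krt17, Krt16 and Galnt6 on the epithelium side, and Col12a1, Postn and Col1a1 on the stroma side.

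Among epithelium-high genes, 8 in each direction with the smallest p and no overlap were examined. Those higher in tumor were Galnt6, the transmembrane proteases Tmprss11e (2.24 ± 0.44, limma adjusted p = 0.0588) and Tmprss11b (2.55), Krt17, S100a9, the carboxypeptidase Cpn1 (2.27), the proton channel Otop2 (2.29) and the kinase Dapk2 (2.11). Tmprss11e was at 2.97, 4.30 and 4.14 in tumor epithelium, against 1.50, 1.72 and 1.62 in normal epithelium. Those lower in tumor were Klk5, the progestin receptor Paqr5 (-2.59), Wnt7b (-1.98), a Wnt ligand of epithelia, Pir (-2.12), Chac1 (-2.11), Cpxm2 (-1.50), Scgb1a1 (-2.37) and Tst (-1.87). Paqr5 was at 1.61, 2.53 and 1.90 in tumor epithelium, against 4.65, 4.85 and 4.27 in normal epithelium (limma adjusted p = 0.0916). Only Galnt6 of these 16 passed the test.

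Genes of the matrix and of activated fibroblasts were mostly in the stroma-high class. Col12a1 encodes a collagen that lies on fibrils of type I collagen, on chromosome 9 (79598991 to 79718831). It was at 3.50, 5.99 and 5.27 in tumor epithelium, against 1.38, 1.91 and 1.96 in normal epithelium (3.27 ± 0.52, limma adjusted p = 0.0284). In stroma it was at 5.77, 7.84 and 7.80 in tumor, against 4.90, 3.12 and 3.53 in normal tissue, and tumor stroma 2 and 3 lay above every tumor epithelium library. Postn, a matrix protein of activated fibroblasts, was at 4.52, 6.84 and 5.50 in tumor epithelium, against 3.11, 3.63 and 3.50 in normal epithelium (2.45 ± 0.48, limma adjusted p = 0.0588). The fibrillar collagen Col1a1 was at 4.66, 7.53 and 6.52 in tumor epithelium, against 3.89, 3.73 and 4.63 in normal epithelium (2.32 ± 0.58, limma adjusted p = 0.193).

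Of 22 tested genes of activated fibroblasts and matrix, 16 were stroma-high and none epithelium-high, and 19 had a positive difference (median 1.23). At an unadjusted p under 0.05, 12 were higher, against 2.76% of all genes. The mean level of the list was 3.13, 4.69 and 4.03 in tumor epithelium, against 2.46, 2.68 and 3.18 in normal epithelium, and between 4.71 and 6.63 in the 6 stroma libraries of both stages. Tumor epithelium 2 and 3 were above every normal epithelium library, and tumor epithelium 1 was level with normal epithelium 3. Resting fibroblast genes, all 15 of them stroma-high, were positive in 9 (median 0.08), and ranged from Dcn, a small proteoglycan, at -1.22 to the secreted protein Ccdc80 at 1.16. The share of dissected stroma in the matrix differences was not tested.

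With the mean level of the matrix list as a covariate, the median over all genes was -0.50, so differences are read against that shift. Under it B2m had 2.77, Nlrc5 1.81, Pthlh 1.97, Fscn1 1.69, Galnt6 2.00 and Col12a1 1.58, and Spink6 had -3.44. Col12a1 is itself a member of that list, so part of its shift is built in. None of the 7 passed the adjusted threshold in that fit. Krt17 had 2.86 and S100a9 5.03. The list medians were 1.52 for stress keratins, 0.42 for class I presentation, 0.29 for macrophages, 0.13 for cytokines, 0 for cell division, -0.09 for invasion and -2.44 for hard keratins. The medians of basal genes (-0.67), oral differentiation (-0.71), Notch (-0.72), EGFR (-0.58) and Schwann cell genes (-0.67) lay below that of all genes, as that of hard keratins did.

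**Figure D5:**
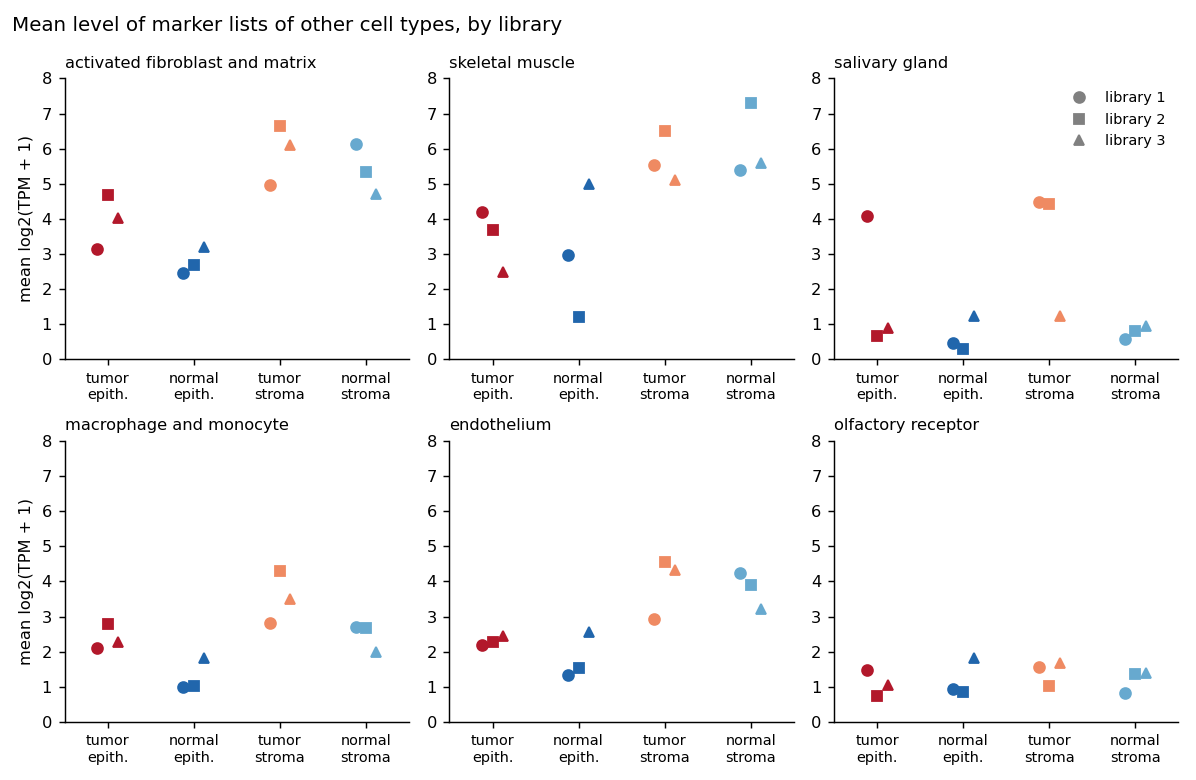
Mean log2(TPM + 1) of 6 marker lists (y axis) in each library of tumor and normal epithelium and stroma (x axis); each point is a library. Matrix and macrophage lists are higher in tumor than in normal epithelium apart from the matrix level of tumor epithelium 1, muscle is highest in normal epithelium 3 among epithelium libraries, and the salivary gland list is high in tumor epithelium 1, tumor stroma 1 and tumor stroma 2 only.

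Skeletal muscle genes overlapped between the stages. The mean level of 31 genes was 4.18, 3.68 and 2.47 in tumor epithelium, against 2.98, 1.19 and 4.98 in normal epithelium, and between 5.11 and 7.29 in stroma. Normal epithelium 3 had the highest and normal epithelium 2 the lowest level, and of 30 tested genes 17 were positive (median 0.32) and none passed. That median ranged from -0.59 to 2.03 when 1 library was left out and was 1.43 without tumor epithelium 1 and normal epithelium 3. Acta1, the actin of muscle fibres, was at 6.66, 7.18 and 4.50 in tumor epithelium, against 4.60, 1.02 and 7.74 in normal epithelium, while Ckm, the muscle creatine kinase, had a difference of -1.06 ± 1.17. With the muscle level as a covariate the 6 genes that rose had differences between 2.73 and 4.02 and Spink6 had -3.08.

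Salivary gland genes were carried by a single library. Their mean level was 4.08, 0.67 and 0.89 in tumor epithelium, against 0.46, 0.30 and 1.24 in normal epithelium. Bpifb1, a secreted protein of salivary glands, was at 10.23, 0.99 and 0.75 in tumor epithelium, against 0.48, 0.55 and 1.73 in normal epithelium. Bpifa2, a parotid secretory protein, was at 8.20, 0.31 and 1.40 in tumor epithelium, against 0.39, 0.21 and 1.34 in normal epithelium. Their fitted differences of 2.66 and 2.17 therefore rest on tumor epithelium 1, and neither passed the test. Endothelial genes were positive in 13 of 15 (median 0.27), and Schwann cell genes in 1 of 8 (median -0.17).

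Without tumor epithelium 1 and normal epithelium 3, 28 genes were higher and 1 lower at an adjusted p under 0.05. The differences were then 4.41 for B2m, 4.12 for Nlrc5, 4.34 for Pthlh, 4.34 for Fscn1, 4.09 for Col12a1, 2.91 for Galnt6 and -3.50 for Spink6. Galnt6 no longer passed in that smaller fit. Within sequencing run 1 (tumor epithelium 1 and 3, normal epithelium 3) and run 2 (tumor epithelium 2, normal epithelium 1 and 2) B2m differed by 3.39 and 5.03, Nlrc5 by 2.26 and 4.42, Pthlh by 2.88 and 4.55 and Fscn1 by 2.41 and 4.64. Col12a1 differed by 2.42 and 4.35, Galnt6 by 2.68 and 2.87 and Spink6 by -2.61 and -3.52, so the direction was the same in both runs, which hold too few libraries for a test.

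The tumor epithelium was also set against the stroma of the tumors, to ask in which compartment the called genes were higher. No gene passed the adjusted threshold of limma in either direction among 15499, with 467 (3.01%) higher in epithelium and 756 (4.88%) lower at an unadjusted p under 0.05. B2m was at 7.42, 9.24 and 7.68 in tumor epithelium, against 6.62, 8.92 and 7.11 in tumor stroma, a fitted difference of 0.56 ± 0.81. Nlrc5 differed by 1.00, Pthlh by 0.82, Fscn1 by 0.49 and Spink6 by -0.06 (limma unadjusted p between 0.18 and 0.906). That fit does not use the pairs of epithelium and stroma libraries described below. Stroma libraries also held RNA of keratinocyte genes. Krt5 was at 7.63, 10.36 and 8.85 in tumor stroma, against 8.95, 10.49 and 10.12 in tumor epithelium. Krt13 was at 9.27, 11.29 and 5.99 in tumor stroma, against 12.15, 13.35 and 13.11 in tumor epithelium. The part of keratinocyte RNA in the stroma levels was not tested. In normal stroma 1, 2 and 3 Pthlh was at 3.41, 1.48 and 2.17, and Fscn1 at 4.16, 3.42 and 2.57. Between tumor epithelium and tumor stroma, Col12a1 had a difference of -2.22 ± 0.76 and Postn one of -2.44 ± 0.72, while Krt16 had 2.66 ± 0.97 and Il33 2.64 ± 0.85 (limma adjusted p between 0.366 and 0.386 for these 4). The ranges of B2m overlapped between the compartments, while in each of the 3 pairs of libraries that share number, age and run the epithelium library was higher. The same held in all 3 pairs for Nlrc5, Pthlh and Fscn1. Spink6 was lower in epithelium in pair 1 and higher in pairs 2 and 3.

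The change from normal to tumor was compared between the compartments as a difference of differences. No gene passed in limma, with 19 genes (0.123%) higher and 69 (0.445%) lower at an unadjusted p under 0.05. Spink6 had the smallest p among the genes named here, with -3.43 ± 0.76: it was at or under 1.59 in all 6 stroma libraries of tumor and normal tissue. B2m had a difference of 2.47 ± 1.15 in this fit of all 26 libraries, in which its difference between tumor and normal stroma was 1.48. Col12a1 differed by -0.12 ± 1.07, Krt17 by -0.61 ± 1.36 and S100a9 by 1.25 ± 2.07, and in the same fit tumor stroma minus normal stroma was 3.31 for Col12a1, 4.37 for Krt17 and 6.08 for S100a9. Normal stroma held keratinocyte RNA as well, with Krt13 at 9.86, 11.01 and 10.51. The part of keratinocyte RNA in these stroma differences was not tested. Tumor stroma against normal stroma itself had no gene past the adjusted threshold of limma, with 289 genes (1.86%) higher and 205 (1.32%) lower at an unadjusted p under 0.05.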

How the data were processed

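RNA of laser-dissected epithelium and stroma was sequenced in 26 libraries. The authors deposited log2 values of TPM plus a pseudocount of 1; the scale was read from the values. The submitters' processing notes name build GRCm38.p6, Salmon 0.9.1, HTSeq 0.10.0, STAR 2.5.1b, Trimmomatic 0.36, SAMtools 1.6, bcl2fastq 2.20 and FastQC 0.11.5, without their roles. Columns were matched to libraries by sample code: code NE_3 is normal epithelium 2 and NE_2 normal epithelium 3, by the descriptions. Of 18676 rows, the 16397 whose mouse identifier stands in a single row were used.

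limma 3.58.1 (R 4.3.3) was fitted to the 13 epithelium libraries with 4 stages and sequencing run, moderating each gene's variance along a trend with its mean, for genes that reached 1 TPM in 3 or more libraries. Residual and prior degrees of freedom were 8 and 13.5, so SEs draw more on the spread shared between genes than on each gene's own. Fits with stroma used all 26 libraries (17 and 17.6). P-values were adjusted by Benjamini-Hochberg, threshold 0.05, and the procedure was tested on simulated data. Named genes were all called genes, the 12 in each direction with the smallest p and no overlap, the 8 in each direction per compartment class, and up to 6 members per list with the largest difference, plus listed anchors; Klk8, Klk14, Car9, Elane, Il1a and Il18 were chosen after their values were seen. The comparison, members and lists were chosen with earlier results of these data known. Correlations of same-numbered libraries' deviations from their group means were -0.17, 0.55 and -0.35, so the numbers were not used as pairs. Coordinates come from GENCODE M21 (GRCm38). Some genes of the lists are not reported here.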

Additional observations from a re-analysis of the deposited data

How the results depend on the processing

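No called gene changed sign in any of its 22 alternatives, and they passed in 15 (Col12a1, Spink6), 14 (B2m, Nlrc5), 12 (Fscn1, Galnt6) and 9 (Pthlh). The count of 6 higher and 1 lower became 231 and 82 with only the 6 tumor and normal libraries, 2 and 2 without a filter, 11 and 2 with a filter of TPM 5, and 0 and 0 with all rows. It was 38 and 20 after quantile normalization, 10 and 2 after median centring, 503 and 130 with library weights estimated gene by gene, 0 and 3 with age as a covariate, 0 and 0 with the matrix score, 10 and 9 with the olfactory receptor score and 28 and 1 without tumor epithelium 1 and normal epithelium 3, the last 2 chosen after seeing the data. The count of lower genes was 2 with the muscle score, 3 without the run term and 0 with a pseudocount of 0.1. With the replicate number as a block it was 5 higher and 0 lower; of the same-numbered pairs, 1 deviated together (0.55) and the others did not. Leaving out single libraries gave 0 to 24 higher and 0 to 1 lower: 24 and 1 without tumor epithelium 1, and 0 higher without tumor epithelium 2 or 3 or normal epithelium 1 or 2. The causes of these shifts were not tested. Of the compartment classes, 2085 epithelium-high genes became 1189 after rescaling and 1075 without 3 stroma libraries, and 800 stroma-high genes became 1372 after quantile normalization and 1631 without those libraries. Tumor epithelium against tumor stroma, with 0 called, gave 1 higher with pairs as a replicate block, 182 higher and 190 lower after quantile normalization, 1 lower without the 3 stroma libraries, and 0 to 4 higher and 0 to 5 lower when single libraries were left out. The difference of differences stayed at 0 in each alternative run. Depth is unknown, so the counting error of low levels could not be estimated.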
